A study of Mus musculus with 8 samples.

Results

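The proteasome subunit genes are the rows whose symbol is Psm followed by a letter from a to g and a number, without the interferon-induced catalytic subunits Psmb8 and Psmb9. They number 45 of the 13439 genes listed, and all 45 were tested. By role, 16 encode the core particle (7 of the alpha ring and 9 of the beta ring), 22 encode regulators (6 ATPases and 11 non-ATPase subunits of the regulatory particle, and 5 other activators and inhibitors), and 7 encode assembly chaperones. The transcripts were measured by RNA sequencing of mouse left ventricle in 8 libraries, with duplicates for each of 4 groups. The floxed sham and floxed TAC hearts came from Lin28afl/fl littermates. The cKO sham and cKO TAC hearts came from mice with a heart-specific knockout of Lin28a, an RNA-binding protein that blocks let-7 microRNA maturation. Transverse aortic constriction (TAC) narrows the aorta and loads the left ventricle with pressure, and TAC hearts were taken 5 days later. For sham hearts no day is stated, and neither the Cre driver nor the age and sex of the mice is stated.

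The proteasome is the barrel-shaped protease that degrades most ubiquitin-tagged proteins in a cell. Alpha rings gate the barrel and beta rings hold the catalytic sites, while the regulatory particle recognises, unfolds and feeds in ubiquitinated substrates. Other activators can cap the same barrel without the ATPase ring, and chaperones guide the assembly of the rings. In heart muscle this system clears damaged and surplus sarcomere proteins, and its activity is known to change when the heart enlarges.

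Promoters are shown for the 4 members with the firmest differences below: Psme4 and Psme1, which fell with pressure overload in floxed hearts, and Psmd8 and Psma5, which rose. Each runs from 250 bases before to 50 bases after the annotated start, read 5′ to 3′ on the strand of the gene, from RefSeq on GRCm38.p6. The Psme1 window lies wholly inside the Psme1 gene as GENCODE places it (chr14:55578123-55581529), so RefSeq and GENCODE differ in its start. Capitals mark a match to a searched motif on either strand. The motifs were TGACNNNGC, the core of the antioxidant response element through which Nrf1 controls proteasome genes, CCAAT, and a core of interferon response elements (GAAA, any 2 bases, then GAAA again) that was chosen after the Psme1 sequence had been seen.
Psme4, chr11:30771525-30771824, plus strand: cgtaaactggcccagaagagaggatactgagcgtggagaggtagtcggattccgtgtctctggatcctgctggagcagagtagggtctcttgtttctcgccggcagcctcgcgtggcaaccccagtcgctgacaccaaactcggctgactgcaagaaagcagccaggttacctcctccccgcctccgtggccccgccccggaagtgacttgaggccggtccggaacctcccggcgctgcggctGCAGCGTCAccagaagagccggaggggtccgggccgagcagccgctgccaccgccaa
Psme1, chr14:55578244-55578543, plus strand: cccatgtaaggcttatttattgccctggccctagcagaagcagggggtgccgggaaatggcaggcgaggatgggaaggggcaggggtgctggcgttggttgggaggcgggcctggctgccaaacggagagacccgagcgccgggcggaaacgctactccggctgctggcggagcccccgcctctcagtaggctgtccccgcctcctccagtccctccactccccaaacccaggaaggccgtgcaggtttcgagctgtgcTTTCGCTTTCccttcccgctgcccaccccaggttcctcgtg
Psmd8, chr7:29180624-29180923, minus strand: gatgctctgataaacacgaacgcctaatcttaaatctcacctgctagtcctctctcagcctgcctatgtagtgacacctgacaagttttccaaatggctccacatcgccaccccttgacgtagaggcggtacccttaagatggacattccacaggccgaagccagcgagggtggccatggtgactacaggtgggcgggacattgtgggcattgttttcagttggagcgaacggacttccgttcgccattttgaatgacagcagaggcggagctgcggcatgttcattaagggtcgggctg
Psma5, chr3:108256676-108256975, plus strand: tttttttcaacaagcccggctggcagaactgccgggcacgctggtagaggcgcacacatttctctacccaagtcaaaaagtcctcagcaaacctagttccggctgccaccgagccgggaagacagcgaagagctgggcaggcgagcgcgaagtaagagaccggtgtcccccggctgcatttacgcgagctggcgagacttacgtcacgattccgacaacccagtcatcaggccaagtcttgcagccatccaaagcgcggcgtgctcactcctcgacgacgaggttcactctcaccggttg
The Psme4 promoter held 1 match to TGACNNNGC, the Psme1 promoter held 1 match to the interferon element core, and those of Psmd8 and Psma5 held none of the 3 motifs. A promoter was matched for 38 of the 45 member genes. TGACNNNGC occurred in 6 of these 38 genes (15.8%: Psmb5, Psmb6, Psmc6, Psmd9, Psmd12 and Psme4), against 14.0% of all 27025 genes with a promoter of this length. CCAAT occurred in 34.2% of member genes against 41.1% of all genes. The interferon element core occurred in 5 of 38 (13.2%: Psmb3, Psmd4, Psmd9, Psme1 and Psmg4) against 3.99% of all genes. These matches describe letters in a window and are not binding sites.

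Read totals lay between 10315902 and 21871570 per library, and a count of 0 allows up to 0.137 to 0.291 CPM (3 reads, counting error only). The summed level of 10 cardiomyocyte markers, between 66956 and 108047 CPM, fits the labelled tissue. Lin28a itself was not analysed here, and each genotype is as labelled. The library cKO sham 2 differed from the other 7 in sex-linked transcripts, with Xist at 44.3 CPM against at most 0.173 CPM. Floxed sham 2, cKO sham 2 and cKO TAC 2 carried the atrial transcript Myl7 at 133, 65.0 and 66.2 CPM, against 0.511 to 6.16 CPM elsewhere. Where leaving out these 3 libraries ended the call of a member, its value without them is given.

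Per length of exon, the class medians of the core and the regulatory particle were of similar size, and the assembly median lay far below them. In floxed sham hearts the median level was 81.9 CPM per kb of exon for the alpha ring, 96.3 for the beta ring, 72.8 for the ATPases and 58.5 for the non-ATPase subunits. The highest level was that of Psmb6, a catalytic beta subunit, at 218 CPM per kb. The alpha ring ran from 32.2 (Psma3) to 106 CPM per kb (Psma6), and the ATPases from 47.4 (Psmc6) to 129 CPM per kb (Psmc3). Non-ATPase subunits ran from 26.1 (Psmd11) to 109 CPM per kb (Psmd2). Exon length is the union over the protein-coding isoforms annotated as basic, such as 2846 bases for Psma3 and 1148 for Psma6. These ranges therefore reflect annotated length as well as transcript level. By CPM alone, Psma5 was the lowest of the alpha ring in floxed sham hearts, with a mean of 48.2 CPM. Among the activators, Psme1 stood at 114 CPM per kb and the proteasome inhibitor Psmf1 at 8.16, within the range of the assembly genes. The 7 assembly genes ran from 4.80 (Psmg3) to 17.4 CPM per kb (Psmg1), with a median of 8.37. Psmb11, the catalytic subunit of the thymus proteasome, was the lowest member at 0.334 CPM per kb. Its level was between 1.02 and 1.93 CPM in all 8 libraries, so its groups overlapped in every comparison.

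**Figure D1:**
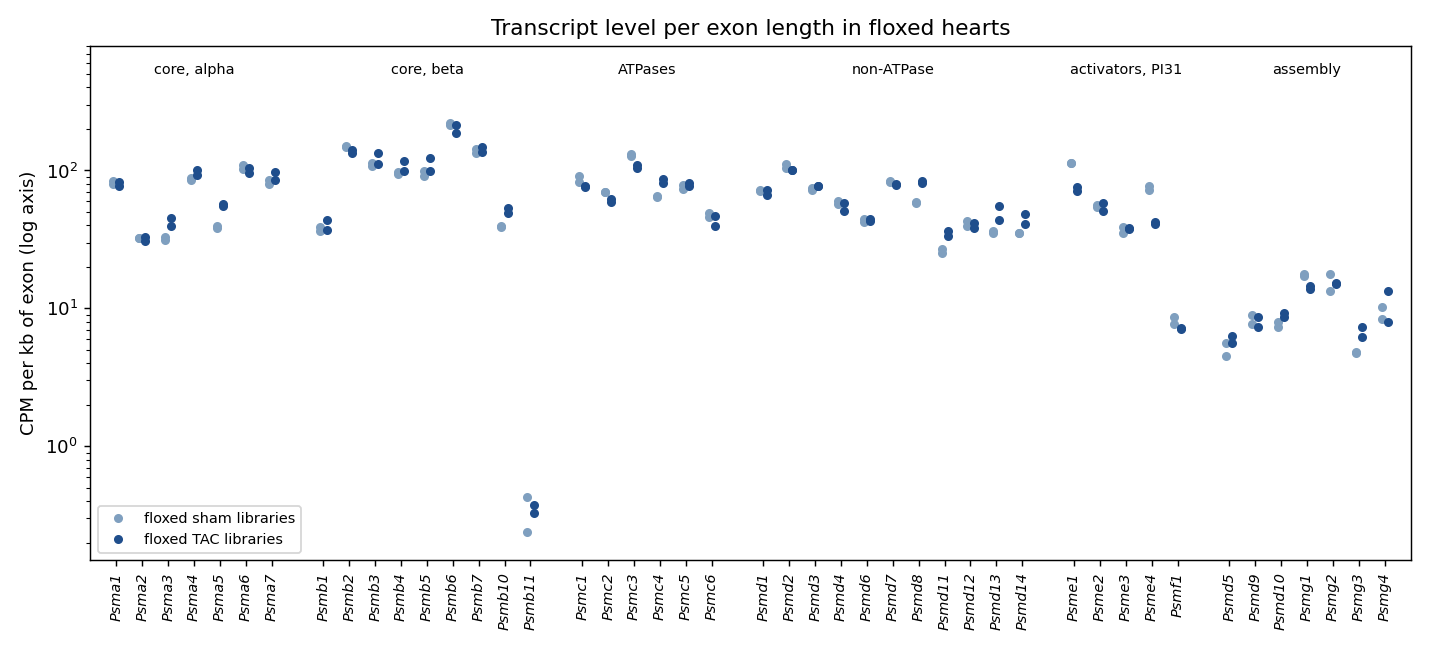
Level of each of the 45 proteasome genes in floxed hearts, as CPM per kb of exon on a log axis, with 1 point for each of the 2 floxed sham and 2 floxed TAC libraries. The 7 assembly genes sit between 4.80 and 17.4 CPM per kb in the sham mean, below most core and regulatory genes, and Psmb11 sits lowest at 0.334.

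Most proteasome transcripts varied little. The spread between the highest and the lowest of the 8 libraries had a median of 0.41 on the log2(CPM + 1) scale over the members, against 0.80 over all genes tested. The narrowest was Psmd7, the partner of the deubiquitinase Psmd14, whose highest library was 1.10-fold its lowest. Psmd7 was at 129.6 and 132 CPM in floxed sham, 124 and 126 in floxed TAC, 134 and 129 in cKO sham and 130.5 and 123 in cKO TAC libraries. Next came Psmd3 (0.14) and Psmd1 (0.17), the latter the large base scaffold. The widest were the activators Psme1 (1.06) and Psme4 (0.93). Between the 2 libraries of a group the median difference of a member was 0.08 in floxed sham, 0.11 in floxed TAC, 0.12 in cKO sham and 0.11 in cKO TAC hearts, against 0.14, 0.17, 0.20 and 0.22 over all genes. These comparisons did not match the genes by level.

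**Figure D2:**
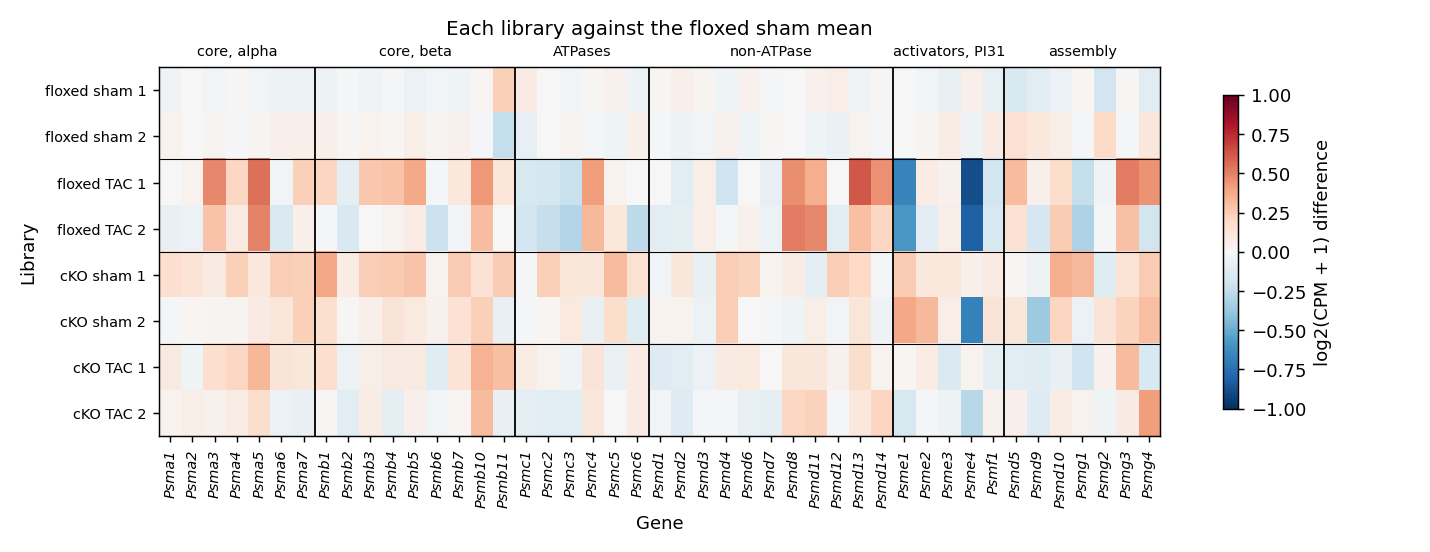
Difference of each library from the floxed sham mean, in log2(CPM + 1), for the 45 proteasome genes (columns, by role) in the 8 libraries (rows). Most cells are pale, both floxed TAC rows are red at Psma5 and Psmd8 and blue at Psme1 and Psme4, and cKO sham 2 is blue at Psme4 while cKO sham 1 is not.

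The first comparison asks how pressure overload changes proteasome transcripts in floxed hearts, where Lin28a is intact. Of the 45 members 7 rose and 2 fell, and 36 did not pass (limma on log2(CPM + 1), adjusted p under 0.05 over all genes). The genes that rose were Psma3, Psma5, Psmb10, Psmc4, Psmd8, Psmd11 and Psmd13, and the genes that fell were the activators Psme1 and Psme4. Over all 13120 genes tested 42.4% passed, 27.9% higher and 14.5% lower, against 20% of the members. By part, 3 of 16 core genes rose, 4 of 22 regulatory genes rose and 2 fell, and 0 of 7 assembly genes passed. The median difference was 0.04 over the members and 0.14 over all genes. The summed level of all 45 members was 4740 and 4762 CPM in floxed sham and 4753 and 4499 CPM in floxed TAC libraries, so the sums overlapped.

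Marker transcripts of several cell types moved in the same comparison. Of 10 cardiomyocyte markers 7 were lower and 1 higher, and their sum was 97221 to 108047 CPM in floxed sham and 66956 to 67075 CPM in floxed TAC libraries. All 11 listed macrophage markers were higher, with sums of 430 to 434 and 2182 to 2452 CPM. Of 7 fibroblast markers 6 were higher, with sums of 1194 to 1249 and 8533 to 10236 CPM. Most of the floxed TAC sum came from the matrix genes Col1a1, Col1a2 and Postn. None of the cardiomyocyte, macrophage and fibroblast markers was at 0 in any library. Their part in the proteasome differences was not tested, and in whole tissue fewer cells of a type and less RNA per cell cannot be told apart.

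**Figure D3:**
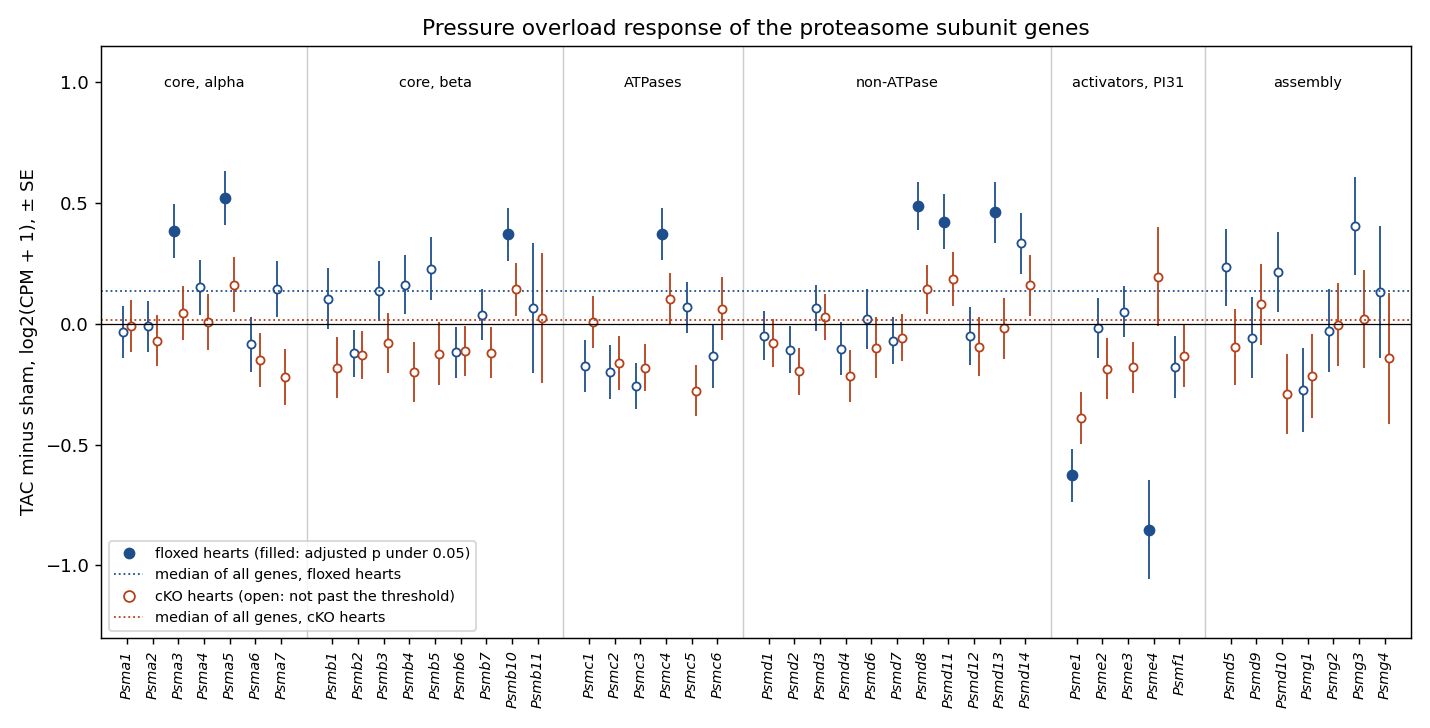
TAC minus sham on the log2(CPM + 1) scale for each of the 45 proteasome genes, with the standard error of the fit, in floxed (blue) and cKO (red) hearts. Filled points passed the threshold, dotted lines are the medians of all genes tested (0.14 floxed, 0.02 cKO), and the 9 filled points are all from floxed hearts.

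In the alpha ring of the core particle 2 of 7 members rose and none fell. Psma5, an alpha ring subunit (chr3:108256926-108279974, plus strand), was at 47.2 and 49.2 CPM in floxed sham, 71.0 and 68.2 in floxed TAC, 51.9 and 51.0 in cKO sham and 61.0 and 54.6 in cKO TAC libraries. Both floxed TAC libraries lay above all other libraries. The difference in floxed hearts was log2 0.52 ± 0.11 (adjusted p = 0.00469), a 1.43-fold rise. Psma3, another alpha ring subunit, was at 89.7 and 93.4 CPM in floxed sham, 128 and 112 in floxed TAC, 97.7 and 93.4 in cKO sham and 103 and 94.5 in cKO TAC libraries. Its floxed TAC libraries were the highest, and it rose by log2 0.38 ± 0.11 (adjusted p = 0.0199). At the other end of the ring was Psma6, at 117 and 126 CPM in floxed sham, 119 and 109.7 in floxed TAC, 144 and 132 in cKO sham and 132 and 116 in cKO TAC libraries, with overlapping floxed groups and a difference of log2 -0.08 ± 0.11 (adjusted p = 0.581). Psma1, Psma2, Psma4 and Psma7 had differences between -0.03 and 0.15. Psma3 and Psma5 have processed pseudogenes of at least 98.6% identity over at least 200 bases, and how the authors' counting split such reads is not stated.

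In the beta ring 1 of 9 members rose and none fell. It was Psmb10, the trypsin-like catalytic subunit of the immunoproteasome (chr8:105935735-105938444, minus strand), which replaces a constitutive subunit in immune cells. Psmb10 was at 52.2 and 51.0 CPM in floxed sham, 69.8 and 64.2 in floxed TAC, 57.0 and 60.9 in cKO sham and 65.8 and 64.5 in cKO TAC libraries. The floxed sham libraries were the lowest of the 8, and floxed and cKO TAC libraries overlapped. In floxed hearts Psmb10 rose by log2 0.37 ± 0.11 (adjusted p = 0.0216). All 11 macrophage markers rose in the same comparison, as given above, and their part in the Psmb10 value was not tested. The constitutive catalytic subunits Psmb5, Psmb6 and Psmb7 had differences of log2 0.23 ± 0.13, -0.12 ± 0.11 and 0.04 ± 0.11 and did not pass. The most negative difference of the ring was that of Psmb2, at 127 and 129 CPM in floxed sham, 120.0 and 115 in floxed TAC, 135 and 129 in cKO sham and 123 and 118 in cKO TAC libraries. Its floxed TAC libraries lay below the floxed sham libraries without passing (log2 -0.12 ± 0.10, adjusted p = 0.348). Differences of the 8 members that did not pass had 95% bounds between -0.54 and 0.67.

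Among the 6 ATPases, which unfold substrates and open the gate, 1 rose and none fell. Psmc4 (chr7:28041707-28050101, minus strand) was at 94.3 and 93.0 CPM in floxed sham, 126 and 118 in floxed TAC, 101 and 88.8 in cKO sham and 102 and 101 in cKO TAC libraries. The floxed TAC libraries lay above the other 6, and Psmc4 rose by log2 0.37 ± 0.11 (adjusted p = 0.0197). The median of the class was -0.15, with negative differences for Psmc1, Psmc2, Psmc3 and Psmc6 and a difference of log2 0.07 ± 0.11 for Psmc5, none of which passed. Psmc3, the most abundant ATPase transcript per kb, was at 259 and 268 CPM in floxed sham, 226 and 215 in floxed TAC, 286 and 281 in cKO sham and 257 and 243 in cKO TAC libraries. The floxed TAC libraries were the lowest of the 8, and the difference of log2 -0.26 ± 0.10 missed the threshold (adjusted p = 0.0552). Psmc3 passed as lower under RLE and TMM scaling, in edgeR and DESeq2, and in the fit of only the groups compared. Its exons overlap those of Slc39a13 on the other strand, which was higher in floxed TAC hearts (log2 1.73 ± 0.16).

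Of the 11 non-ATPase subunits 3 rose and none fell. Psmd8 (chr7:29174188-29180701, minus strand), a lid subunit that joins last when the lid assembles, was at 129 and 129 CPM in floxed sham, 179 and 184 in floxed TAC, 136 and 125 in cKO sham and 139.6 and 149 in cKO TAC libraries. Both floxed TAC libraries stood above all others, with no overlap. The rise of log2 0.49 ± 0.10 (adjusted p = 0.00361) corresponded to 1.4-fold. Psmd11, a lid subunit that clamps lid and base together, was at 79.9 and 74.9 CPM in floxed sham, 99.9 and 108 in floxed TAC, 72.3 and 81.2 in cKO sham and 83.9 and 90.7 in cKO TAC libraries and rose by log2 0.42 ± 0.11 (adjusted p = 0.0137). Psmd13, also of the lid, was at 69.4 and 72.6 CPM in floxed sham, 109.8 and 87.6 in floxed TAC, 81.6 and 77.2 in cKO sham and 80.3 and 76.5 in cKO TAC libraries. It rose by log2 0.46 ± 0.13 (adjusted p = 0.0153), with the wider gap between replicates in floxed TAC hearts. The exons of Psmd13 overlap those of Sirt3 on the other strand, which fell in the same comparison (log2 -0.73 ± 0.13). Psmd14, the deubiquitinase of the lid, had a difference of log2 0.33 ± 0.13 and missed the threshold (adjusted p = 0.0579). It passed as higher in the fit of only the groups compared. The large base scaffold Psmd2, which binds ubiquitin shuttles, was at 332 and 311 CPM in floxed sham, 296 and 300.3 in floxed TAC, 349 and 329 in cKO sham and 297 and 295 in cKO TAC libraries. Its difference was the most negative of the class and did not pass (log2 -0.11 ± 0.10, adjusted p = 0.408). Psmd1, Psmd3, Psmd4, Psmd6, Psmd7 and Psmd12 had differences between -0.10 and 0.06.

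Psma5 and Psmd8 passed under all 19 alternatives. Psma3, Psmb10, Psmc4, Psmd11 and Psmd13 each lost the threshold under 8 of 19. These 8 included RLE and TMM scaling, edgeR, DESeq2, leaving out either floxed sham library, and leaving out the 3 libraries with atrial transcripts. Without those 3 libraries the differences of Psma3, Psmb10, Psmc4, Psmd11 and Psmd13 were log2 0.41, 0.35, 0.36, 0.38 and 0.49, with adjusted p of 0.0837, 0.116, 0.0983, 0.0928 and 0.0753. Floxed TAC 1 was the further library for Psma3, Psmb10, Psmc4 and Psmd13, and floxed TAC 2 for Psmd11. Under RLE scaling the median of all genes moved from 0.14 to 0.0033 and that of the members from 0.04 to -0.11. The calls over all genes then split into 2985 higher and 2595 lower, against 3655 and 1907 as deposited. Members past the threshold under RLE, TMM, edgeR and DESeq2 were 2 higher (Psma5 and Psmd8) and 3 lower (Psmc3, Psme1 and Psme4).

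The activators that bind the core particle without ATPases held both genes that fell. Psme4 encodes PA200, a large single-chain activator found mainly in the nucleus (chr11:30771726-30880361, plus strand). It was the most abundant member by CPM in floxed sham hearts, and per kb of its long exon sequence it stood at 75.2 CPM per kb. Psme4 was at 504 and 472 CPM in floxed sham, 263 and 276 in floxed TAC, 504 and 305 in cKO sham and 501 and 403 in cKO TAC libraries. Both floxed TAC libraries lay below all other libraries, and cKO sham 2 lay far below cKO sham 1. The difference in floxed hearts was log2 -0.85 ± 0.20 (adjusted p = 0.00802), a 1.8-fold fall. It missed the threshold without floxed sham 1 (log2 -0.80, adjusted p = 0.0575) and kept it under the other 18 alternatives.

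Psme1 encodes the alpha subunit of PA28, the interferon-induced activator that favours release of peptides for antigen presentation (chr14:55578123-55581529, plus strand). It was at 127 and 127 CPM in floxed sham, 79.3 and 84.5 in floxed TAC, 152 and 166 in cKO sham and 129 and 114 in cKO TAC libraries. Both floxed TAC libraries lay below all others, and both cKO sham libraries lay above all others. Psme1 fell 1.54-fold in floxed hearts (log2 -0.63 ± 0.11, adjusted p = 0.00148), and it passed under all 19 alternatives. Psme2, the beta subunit that joins Psme1 in the same ring, lies 5.91 kb away on the opposite strand. Psme2 was at 52.9 and 54.9 CPM in floxed sham, 56.8 and 49.8 in floxed TAC, 58.1 and 67.8 in cKO sham and 56.6 and 53.5 in cKO TAC libraries, with overlapping floxed groups and a difference of log2 -0.02 ± 0.13 (adjusted p = 0.93, 95% interval -0.30 to 0.26). Psme2 shares 99.4% identity with Psme2b, so its value may hold reads of that copy. The exons of Psme1 overlap those of Emc9 on the other strand, which was at 21.7 and 20.7 CPM in floxed sham, 15.7 and 12.03 in floxed TAC, 26.5 and 24.6 in cKO sham and 20.7 and 19.2 in cKO TAC libraries. Emc9 fell (log2 -0.59 ± 0.16, adjusted p = 0.016). Whether the counting used strand is not stated. From floxed sham to floxed TAC the mean of Emc9 was lower by 7.34 CPM and that of Psme1 by 45.1 CPM.

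The remaining regulators of this class did not pass. Psme3, the nuclear homologue of the PA28 subunits, was at 93.2 and 103 CPM in floxed sham, 101 and 102 in floxed TAC, 106 and 103 in cKO sham and 88.8 and 94.7 in cKO TAC libraries (log2 0.05 ± 0.10, adjusted p = 0.731). Psmf1, which encodes the inhibitor PI31, ran from 28.3 to 35.7 CPM over the 8 libraries (log2 -0.18 ± 0.13, adjusted p = 0.296). The summed level of the 5 genes of the class includes Psme4 and Psme1, which fell. It went from 808 and 791 CPM in floxed sham to 529 and 542 CPM in floxed TAC libraries, without overlap. The summed level of all members but Psme4 was 4236 and 4290 against 4490 and 4223 CPM, with overlap.

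None of the 7 assembly genes passed in floxed hearts by limma, by edgeR or by DESeq2, and 0 had an unadjusted p under 0.05 by limma. Their CPM levels lie below those of all other members except Psmb11, and 95% bounds ran from -0.67 to 0.86. Psmg3, a chaperone of alpha ring assembly, was at 4.28 and 4.20 CPM in floxed sham, 6.49 and 5.44 in floxed TAC, 4.75 and 5.11 in cKO sham and 5.52 and 4.55 in cKO TAC libraries. The floxed TAC libraries lay above the floxed sham libraries and overlapped the cKO TAC libraries, and the difference of log2 0.41 ± 0.20 did not pass (adjusted p = 0.138). Psmg1, a partner in the same step, was at 18.4 and 17.9 CPM in floxed sham, 15.2 and 14.5 in floxed TAC, 23.1 and 17.5 in cKO sham and 15.7 and 18.7 in cKO TAC libraries. Its floxed TAC libraries were the lowest of the 8 (log2 -0.27 ± 0.18, adjusted p = 0.238). Psmg2 and Psmg4 had differences of log2 -0.03 and 0.13. Psmd5, Psmd9 and Psmd10, which chaperone the ATPase ring, had differences of log2 0.23, -0.06 and 0.22.

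**Figure D4:**
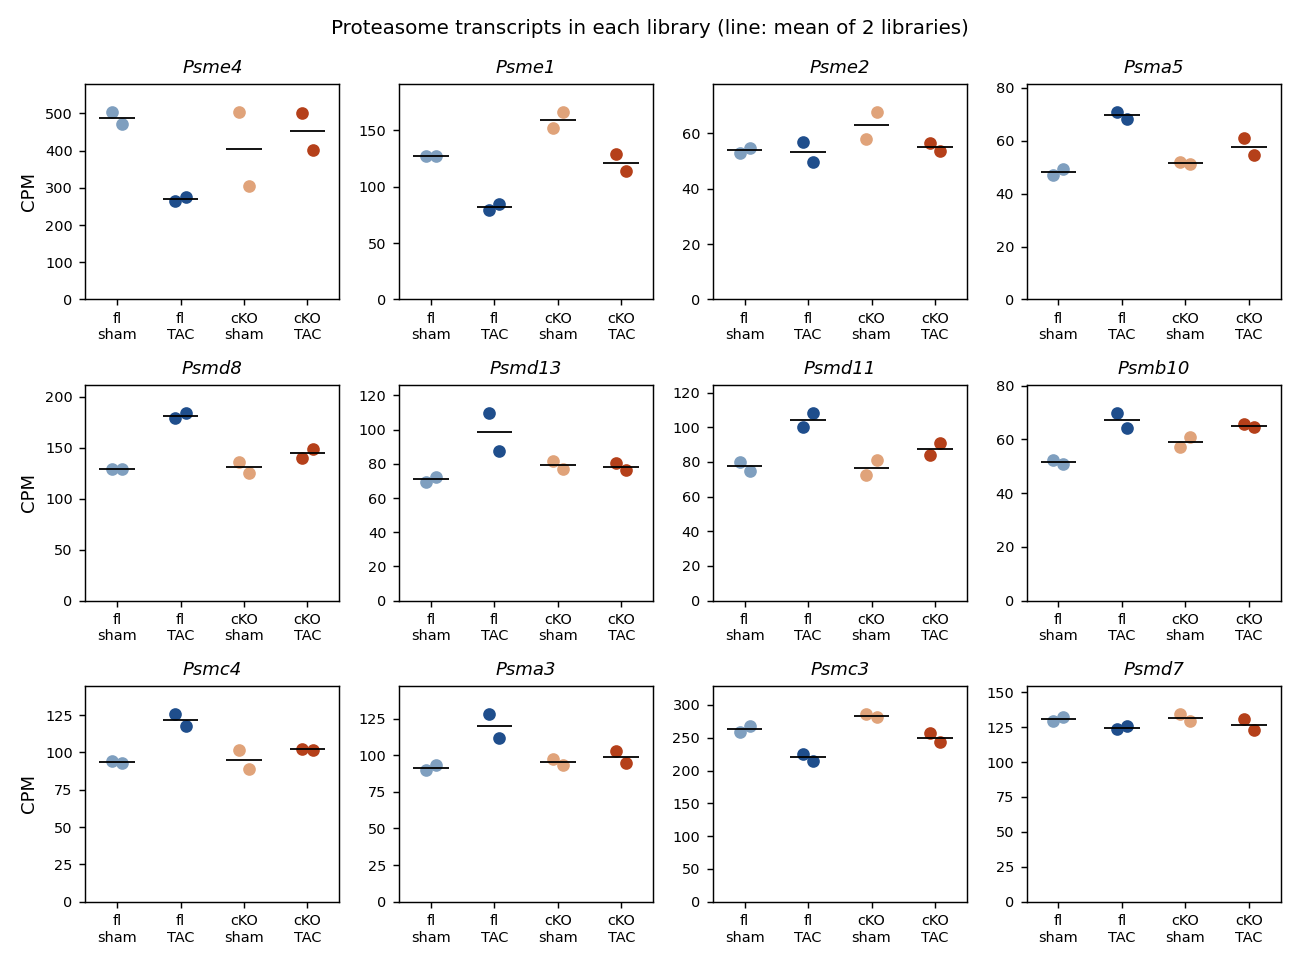
CPM of 12 proteasome genes in each library, with 1 point per library and the group mean as a line (axes start at 0). Psme4 and Psme1 are lowest and Psma5, Psmd8, Psmd11 and Psmd13 highest in floxed TAC hearts, the floxed groups of Psme2 overlap, Psmd7 stays between 123 and 134 CPM, and the 2 cKO sham libraries of Psme4 stand at 504 and 305 CPM.

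The next comparison asks what TAC did to the members in cKO hearts. None of the 45 members passed by limma, where 2.53% of all genes did (2.09% higher and 0.442% lower). By edgeR and by DESeq2 0 members passed as well, and 2 members had an unadjusted p under 0.05 by limma. Differences ran from log2 -0.39 (Psme1) to 0.19 (Psme4), with 95% bounds between -0.75 and 0.65 and a median of -0.09, against 0.02 over all genes. Psme1 came closest (log2 -0.39 ± 0.11, adjusted p = 0.107), and both cKO TAC libraries lay below both cKO sham libraries. Of the genes that rose in floxed hearts, Psma5 differed by log2 0.16 ± 0.11 and Psmd8 by log2 0.14 ± 0.10, with adjusted p of 0.522 and 0.529. Psmd13 differed by log2 -0.02 ± 0.13 (adjusted p = 0.962). The cKO groups of Psme4 overlapped, and its difference of log2 0.19 ± 0.20 became -0.17 without cKO sham 2 and 0.56 without cKO sham 1. In these hearts 0 of 10 cardiomyocyte markers passed by limma (3 at an unadjusted p under 0.05), 0 by edgeR and 1 by DESeq2 (Pln, lower), and 9 of 11 macrophage markers were higher, with sums of 348 to 462 CPM in cKO sham and 770 to 1049 CPM in cKO TAC libraries.

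Comparison of cKO with floxed hearts after TAC found 2 members higher and 1 lower, where 24.9% of all genes passed (8.39% higher and 16.5% lower). This comparison shares the floxed TAC libraries with the floxed response. Psme1 was higher in cKO TAC hearts by log2 0.56 ± 0.11 (adjusted p = 0.00687) and passed under all 19 alternatives. Psme4 was higher by log2 0.73 ± 0.20 (adjusted p = 0.0282), and both cKO TAC libraries lay above both floxed TAC libraries. It lost the threshold without floxed TAC 1 (adjusted p = 0.125), floxed TAC 2 (adjusted p = 0.104) or cKO TAC 1 (adjusted p = 0.159). Psmd8 was lower by log2 -0.33 ± 0.10 (adjusted p = 0.04), a call that was lost under 11 of 19 alternatives, RLE, TMM, edgeR and DESeq2 among them. Without the 3 libraries with atrial transcripts it was log2 -0.38 (adjusted p = 0.1). No core and no assembly gene passed by limma, edgeR or DESeq2, and 2 core and 0 assembly genes had an unadjusted p under 0.05 by limma. The median of the members was -0.01 and that of all genes -0.10. Beside these values, 8 of 10 cardiomyocyte markers were higher and all 11 macrophage markers lower in cKO TAC hearts, and their part was not tested.

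In sham hearts no member differed between genotypes by limma, edgeR or DESeq2, and 0.0534% of all genes passed by limma (0.0457% higher and 0.00762% lower). By limma 3 members had an unadjusted p under 0.05. Differences of cKO from floxed sham hearts ran from log2 -0.31 (Psme4) to 0.32 (Psme1), with 95% bounds between -0.77 and 0.89. They were positive for 39 of 45 members, among them all 16 core genes, and for 7128 of the 13120 genes tested. The median was 0.11 over the members and 0.02 over all genes. All 6 endothelial markers were positive in the same comparison, with a median of 0.21 and sums of 1102 to 1103 CPM in floxed sham and 1254 to 1359 CPM in cKO sham libraries. None of them passed by limma, edgeR or DESeq2, with 0 at an unadjusted p under 0.05 by limma, and their part was not tested. The summed level of all members in cKO sham 1 and 2 was 5217 and 4778 CPM, against 4740 and 4762 CPM in floxed sham libraries. Both cKO sham libraries thus lay above the floxed ones, cKO sham 2 narrowly. Psme4, the member with the most negative difference, was low in cKO sham 2. Without it the sums were 4713 and 4473 CPM against 4236 and 4290 CPM, again with both cKO sham libraries above.

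The interaction subtracts the floxed TAC response from the cKO TAC response and so tests the difference between genotypes itself. Psme4 was the only member past the threshold, where 14.1% of all genes passed (4.93% higher and 9.18% lower). Its interaction was log2 1.05 ± 0.29 (adjusted p = 0.041), and it also passed in edgeR and DESeq2. Without floxed sham 1, floxed sham 2, floxed TAC 1, floxed TAC 2, cKO sham 2 or cKO TAC 1 the adjusted p was between 0.0704 and 0.144. The value fell to log2 0.69 without cKO sham 2, the library that differed in sex-linked transcripts, and to 0.89 (adjusted p = 0.0536) without the 3 libraries with atrial transcripts. For Psme1 the interaction was log2 0.24 ± 0.15 (adjusted p = 0.331, 95% interval -0.11 to 0.58), so a difference between its 2 responses was not shown. Genes that rose in floxed hearts had negative interactions that did not pass, such as Psmd13 (log2 -0.48 ± 0.18, adjusted p = 0.101), Psma5 (log2 -0.36 ± 0.16, adjusted p = 0.156) and Psmd8 (log2 -0.35 ± 0.14, adjusted p = 0.129). The median over the members was -0.12 and that over all genes -0.13. In the same interaction 6 of 10 cardiomyocyte markers were higher and 8 of 11 macrophage markers lower, and their part was not tested.

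The wider pathway was read from 5 gene lists in the same fit. Of 11 tested proteasome-associated genes outside the symbol rule, 1 rose and 2 fell in floxed hearts. Over all genes 27.9% rose and 14.5% fell. AI314180, which encodes the proteasome adaptor Ecm29, fell (log2 -0.59 ± 0.12, adjusted p = 0.00347) and was at 219 and 196 CPM in floxed sham, 139 and 135 in floxed TAC, 243 and 200.2 in cKO sham and 203 and 191 in cKO TAC libraries, with both floxed TAC libraries below all others. Zfand5, an activator of the regulatory particle, fell (log2 -0.42 ± 0.11, adjusted p = 0.0112) and missed the threshold without floxed sham 1, floxed sham 2 or floxed TAC 2, and without the 3 libraries with atrial transcripts (log2 -0.42, adjusted p = 0.0855). Txnl1, a redox protein bound to the regulatory particle, rose by log2 0.37 ± 0.11 (adjusted p = 0.0234) and lost the call under 9 of 19 alternatives, RLE and TMM scaling and leaving out those 3 libraries (log2 0.40, adjusted p = 0.0744) among them. After TAC, AI314180 was higher in cKO than in floxed hearts (log2 0.52 ± 0.12, adjusted p = 0.0136), a call lost without floxed TAC 1, floxed TAC 2 or cKO TAC 1.

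Nrf1, encoded by Nfe2l1, is the factor that raises proteasome transcription when the protease is impaired, and small Maf proteins are its partners. Of 8 genes of this control 2 rose and 1 fell in floxed hearts, where 27.9% of all genes rose and 14.5% fell. The small Maf genes Maff (log2 1.53 ± 0.24, adjusted p = 0.000925) and Mafk (log2 0.65 ± 0.12, adjusted p = 0.00231) rose under all 19 alternatives as well. Maff was at 4.35 and 6.36 CPM in floxed sham, 15.5 and 18.8 in floxed TAC, 8.63 and 6.70 in cKO sham and 8.55 and 12.3 in cKO TAC libraries, so both floxed TAC libraries stood above the other 6. Nfe2l1 fell (log2 -0.53 ± 0.12, adjusted p = 0.00734) and was at 909 and 924 CPM in floxed sham, 589 and 686 in floxed TAC, 670.4 and 795 in cKO sham and 716 and 746 in cKO TAC libraries. The fall of Nfe2l1 missed the threshold without floxed sham 2, without floxed TAC 1, and when the 3 libraries with atrial transcripts were left out (log2 -0.51, adjusted p = 0.0653).

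Of 6 ubiquitin genes and activating enzymes 1 rose in floxed hearts, where 27.9% of all genes rose and 14.5% fell. Rps27a, which encodes ubiquitin fused to a ribosomal protein, was at 184 and 178 CPM in floxed sham, 419 and 322 in floxed TAC, 202 and 207 in cKO sham and 218 and 229.9 in cKO TAC libraries. It rose by log2 1.02 ± 0.13 in floxed hearts (adjusted p = 0.000244) and was lower in cKO than in floxed TAC hearts (log2 -0.71 ± 0.13, adjusted p = 0.0049). Processed pseudogenes of Rps27a reach 99.8% identity, so its reads may be shared with them. Uba1, the main activating enzyme, did not pass (log2 0.21 ± 0.12). Of 12 ubiquitin shuttles and p97 cofactors 4 rose and 0 fell, beside the same 27.9% and 14.5% of all genes. Faf2 and Ubxn4, which tether p97 to the endoplasmic reticulum, rose by log2 0.76 ± 0.13 (adjusted p = 0.00148) and 0.55 ± 0.12 (adjusted p = 0.00468). Ubqln1, a shuttle that carries ubiquitinated proteins to the proteasome, rose by log2 0.36 ± 0.12 (adjusted p = 0.0341), a call lost under 9 of 19 alternatives, among them leaving out the 3 libraries with atrial transcripts (log2 0.40, adjusted p = 0.0726). The fourth was the cofactor Ubxn1 (log2 0.33 ± 0.11, adjusted p = 0.037), named after its value was seen. Under RLE or TMM scaling and in edgeR the list had 2 higher and 2 lower genes, and in DESeq2 2 higher and 1 lower.

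Of 10 muscle ubiquitin ligases 5 were lower and 1 was higher in floxed hearts, where 14.5% of all genes were lower and 27.9% higher. Asb2, a ligase subunit that targets filamins, was at 750.4 and 781 CPM in floxed sham, 339.8 and 289 in floxed TAC, 608 and 613 in cKO sham and 641 and 519.8 in cKO TAC libraries. It fell (log2 -1.28 ± 0.13, adjusted p = 7.87e-05) and was higher in cKO than in floxed TAC hearts (log2 0.88 ± 0.13, adjusted p = 0.00233). The atrophy ligases Trim63 (log2 -0.79 ± 0.10, adjusted p = 0.000265) and Fbxo32 (log2 -1.35 ± 0.26, adjusted p = 0.00265) fell as well. The other calls, named after their values were seen, were Trim54 (log2 -0.47 ± 0.11) and Mdm2 (log2 -0.37 ± 0.12), both lower, and Fbxo30 (log2 0.64 ± 0.17), which was higher. Trim63 was at 235 and 216 CPM in floxed sham, 126 and 134 in floxed TAC, 259 and 244 in cKO sham and 183 and 189 in cKO TAC libraries, so both floxed TAC libraries lay below the other 6. These falls stood beside lower values of 7 of 10 cardiomyocyte markers, whose part was not tested. In cKO hearts 0 of the 47 genes of the 5 lists passed by limma and 6 had an unadjusted p under 0.05, where 2.53% of all genes passed. In floxed hearts 17 of the 47 passed, where 42.4% of all genes did. In cKO hearts edgeR called 0 of them as well, and DESeq2 called Zfand5 and Trim63 as lower.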

How the data were processed

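RNA of mouse left ventricle was measured in 8 libraries from 4 groups of 2. Per the labels' protocols, RNA was extracted with Trizol and made into stranded mRNA libraries. The submitters' processing notes name Bowtie2 2.2.6, HTSeq, DESeq2 and the mm10 genome. No source used here gives the gene annotation or the counting settings, strand among them. The deposited unit is CPM, which the authors scaled by library total alone. Dividing by the value of 1 read gave whole reads for 100% of values (tolerance 0.02 reads), and these recovered reads served the count tests.

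A filter of 1 CPM reached in at least 2 libraries left 13120 genes to test and removed 319. Tests used limma 3.58.1 under R 4.3.3, with a trended variance on log2(CPM + 1), 1 coefficient per group and all 8 libraries. A fold change on this scale understates the change of low genes. The threshold was a Benjamini-Hochberg adjusted p under 0.05 over all genes tested, and values are differences ± the standard error of the fit. The script was tested on simulated data. The labels call the libraries duplicates without naming separate animals, so p-values reflect the spread among these samples alone. In cKO sham libraries 1 and 2, Xist was at 0 and 44.3 CPM and Ddx3y at 63.2 and 0 CPM. Those 2 libraries were therefore not made from the same animal. In the other groups the spread may be technical. The 2 libraries of a group differed by more than sampling noise.

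Alternatives were a pseudocount of 0.25 or 4, no filter, a filter at 5 CPM, RLE and TMM scaling, edgeR 4.0.16 and DESeq2 1.42.0 on the recovered reads, the replicate number as a block, only the groups compared, each library left out, and the 3 libraries with atrial transcripts left out. The members and lists were chosen with earlier results of these data known. Values in all libraries were printed for the members with the most positive and most negative floxed difference of each class, for members past the threshold against their class median, and for members past it in cKO hearts, in sham hearts or in the interaction. Of each pathway list the 3 genes with the smallest adjusted p in floxed hearts were named, except 1 that is not reported here, and a name outside these rules is marked or illustrates its class. Positions and exon lengths are from GENCODE vM21 on GRCm38, the assembly that mm10 also names. Near copies share at least 95% identity over at least 200 aligned bases.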

Additional observations from a re-analysis of the deposited data

Results flagged for a closer look

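The genotype by surgery interaction passed the threshold for 1 of 45 proteasome genes and 4 of 47 genes of the wider pathway, against 14.1% of all genes. The TAC response of the genes that passed differed between cKO and floxed hearts by limma. Psme4, the PA200 activator gene, had an interaction of log2 1.05 ± 0.29 (adjusted p = 0.041). It rests on a fall in floxed hearts and on cKO sham libraries that stood at 504 and 305 CPM, and it missed the threshold under 7 of 18 alternatives. Asb2, the ligase subunit gene, had an interaction of log2 1.20 ± 0.18 (adjusted p = 0.00655) and kept it under all 18. For Rps27a it was log2 -0.89 ± 0.18 (adjusted p = 0.0156), lost under 3 of 18, namely without floxed sham 1, without floxed sham 2 and without the 3 libraries with atrial transcripts (log2 -0.89, adjusted p = 0.0949). The p97 cofactor genes Faf2 (log2 -0.72 ± 0.19, adjusted p = 0.0344) and Ubxn4 (log2 -0.59 ± 0.17, adjusted p = 0.045) lost it under 11 and 12 of 18, RLE, TMM, edgeR and DESeq2 among them. Without the 3 libraries with atrial transcripts they were log2 -0.70 (adjusted p = 0.103) and -0.75 (adjusted p = 0.0756).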

How the results depend on the processing

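No member changed its direction where it had passed the threshold, under any of the 19 alternatives (18 for the interaction). In floxed hearts the 7 higher members became 2 under RLE scaling, TMM scaling, edgeR and DESeq2 and without the 3 libraries with atrial transcripts, and 2 to 8 with 1 library left out. The 2 lower members became 1 to 3 with 1 library left out. Between cKO and floxed TAC hearts the 2 higher members became 1 to 2, and the 1 lower member 0 to 1, with 1 library left out. That lower member was 0 under RLE, TMM, edgeR and DESeq2, in the fit of only the groups compared and without the 3 libraries with atrial transcripts. The 1 member of the interaction became 0 without those 3 libraries and 0 to 1 with 1 library left out. The count stayed at 0 in cKO hearts and in sham hearts under the alternatives run. At 5 CPM Psmb11 was not tested. Where a library left out leaves a group with 1 sample, that sample is assumed to vary like the other groups. Same-numbered libraries correlated at -0.11 to 0.08 over genes after removal of group means. With 2 libraries a group this cannot exclude a shared litter or day, and the labels do not say that a number marks one. With the replicate number as a block the counts were 7 higher and 2 lower in floxed hearts, 0 in cKO hearts, 2 higher and 1 lower between TAC hearts, 0 between sham hearts and 1 in the interaction. The members with the lowest levels, and so the fewest reads, were Psmb11 at 1.02 to 1.93 CPM and the 7 assembly genes at 4.20 to 27.7 CPM.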
